A study of Homo sapiens with 2 samples.

Results

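Mitochondrial ribosomal protein genes encode the protein part of the mitoribosome, and their mRNAs were examined in U87 cells, an established human glioblastoma line, after silencing of HOXD9. They were taken as the genes with an MRPL symbol (large subunit) or an MRPS symbol (small subunit) followed by a number and an optional letter. On the array 140 probe sets (sets of short probes read together) were assigned to 1 such gene alone. They represented 75 of the 19775 named genes, 48 of the large and 27 of the small subunit. RefSeq holds 77 genes with such symbols, and MRPL53 and MRPS24 are missing here because their probe sets are shared with other genes. One array came from U87 cells transfected with HOXD9 siRNA-2 and 1 from U87 cells transfected with control siRNA, each siRNA at 50 nM with Lipofectamine RNAiMAX, and RNA was extracted on Day 2. HOXD9 silencing rested on a single siRNA sequence here. With 1 array per condition there is no replicate, no test and no SD between samples, and each ratio compares 2 arrays.

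The mitoribosome works in the mitochondrial matrix and translates the few mRNAs encoded by mitochondrial DNA, all of which specify subunits of the oxidative phosphorylation complexes. Its RNAs are made in the organelle, whereas its proteins are encoded by nuclear genes, made on cytosolic ribosomes and imported. The small subunit binds mRNA and reads the codon. The large subunit joins amino acids and releases the chain through a tunnel towards the inner membrane. Some of the proteins have counterparts in the bacterial ribosome and the others arose in the mitochondrial lineage. Inherited defects of several of them, such as MRPS16, MRPS22 and MRPL3, cause combined deficiency of the respiratory chain.

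HOXD9, the silenced gene, was dim. Its brighter probe set gave a signal of 5.58 with HOXD9 siRNA-2 and 19.7 with control siRNA. The other gave 11.4 with HOXD9 siRNA-2 and 9.33 with control siRNA. Probe sets for Bacillus subtilis transcripts, used as a measure of background, reached 18.4 with HOXD9 siRNA-2 and 11.4 with control siRNA. With 18.4 as the background on both arrays, the first of these bounds the silencing of HOXD9 at 1.07-fold or more, and the second gives no fold. The study measured the silencing separately, by qRT-PCR in U87 cells, and presents both of its HOXD9 siRNAs as reducing the mRNA. Of the glial markers, GFAP and S100B lay within the background on every probe set, whereas the mesenchymal markers VIM, CD44 and FN1 gave signals above 5000 on their brightest probe sets on both arrays. A typical gene read lower on the HOXD9 siRNA-2 array. The median log2 ratio (HOXD9 siRNA-2 over control siRNA) was -0.25 over 11624 genes, and centering each array on its median adds 0.30 to every ratio. Those array medians are taken over all probe sets and lie near the background, at 18.3 with HOXD9 siRNA-2 and 22.5 with control siRNA. After centering, all genes with signals from 1000 to 5000 had a median of 0.13, so values of bright genes above 0 are not particular to them.

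All 75 mitochondrial ribosomal protein genes were detected and, apart from MRPL16, their signals were close on both arrays. The median log2 ratio was -0.15, compared with -0.25 for all 11624 genes, and 74 of the 75 lay between -0.57 and 0.16. After centering, the genes stood at a median of 0.15 and all genes at 0.05, so the direction of the set against 0 depends on the scaling. The median of the set lay 0.10 above that of all genes as deposited, and 0.059 above it after quantile normalization and 0.064 after loess. A gene was counted as past the threshold of the study when the signals differed by more than 2-fold. Only MRPL16 was past it downward (1 of 75, against 4.95% of all genes) and none upward (0 of 75, against 0.516%). Both counts were the same after centering, when 2.31% of all genes were past it downward and 1.17% upward. The shares of all genes include genes dimmer than any of the 75. As deposited, 3.07% of all genes with signals from 100 to 300 were past the threshold downward. The share was 2.22% from 300 to 1000 and 0.703% from 1000 to 5000. In each of these bands 0 genes were past it upward, so the 0 upward is not particular to the 75. In the absence of replicates these counts have no test.

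**Figure D1:**
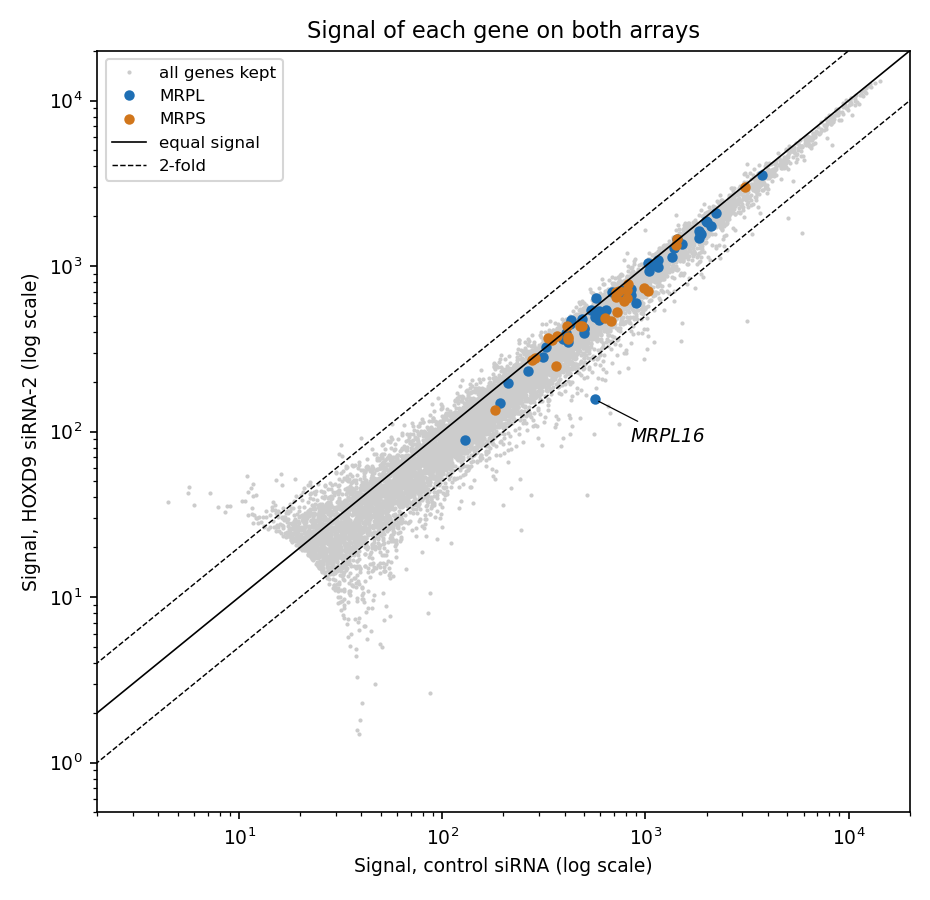
Signal with HOXD9 siRNA-2 (y axis, log scale) against signal with control siRNA (x axis, log scale) for each gene on its brightest probe set above the signal filter, with MRPL genes in blue, MRPS genes in orange and all genes in gray. The solid line marks equal signal and the dashed lines 2-fold. The genes follow the line of equal signal from about 100 upward, with MRPL16 alone below the lower 2-fold line.

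Genes were represented by their brightest probe set among those with a mean signal of at least 19.8, the median of all probe sets. Of the 140 probe sets 125 passed this filter, at least 1 for each of the 75 genes. The mean signals of the chosen probe sets ran from 109 to 3659, so all stood clear of the background. Signals of different probe sets cannot be set against each other as mRNA levels. Different probe sets of 1 gene had a pooled SD of 0.28 in log2 ratio over the 28 genes with 2 or more. Over 6081 genes of the whole array it was 0.41. The probe sets share the same 2 arrays, so this SD holds no variation between cultures, transfections or arrays and is not replicate error. Among probe sets of the 75 genes at a signal of 100 or more it was 0.19 (19 genes). Of the 75 genes 64 lay within 0.28 of the median of the set. Most of the order among them is therefore smaller than the disagreement of probe sets within a gene, dim ones included.

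MRPL16 had a signal of 156 with HOXD9 siRNA-2 and 564 with control siRNA. Its log2 ratio was -1.85, or 27.7% of the control, and -1.55 after centering. The protein is the counterpart of bacterial L16, which lies beside the site of peptide bond formation and of tRNA binding. A ratio as low was seen in 81 of the 11624 genes (0.697%), MRPL16 included. The gap to MRPL19, the next lowest, was 1.28. Of all 3023 genes with mean signals from 300 to 1000, the range in which MRPL16 lies, 2.22% were past 2-fold downward. Both MRPL16 signals were far above the background, but the gene has a single probe set, of the kind that can match several transcripts, and no other probe set checks the value.

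The promoters of 67 of the 75 genes were matched in RefSeq (GRCh38.p14), as windows from 250 bases before to 50 bases after the first listed transcription start. They are shown for MRPL16, the gene past 2-fold, MRPL3, which hardly differed between the arrays, and MRPS18A, the lowest MRPS gene on its brightest probe set. The other MRPS18A probe set, of nearly the same signal, gave a log2 ratio of -0.04. Capitals mark matches on either strand to letters bound by factors known from promoters of mitochondrial genes, CCGGAAG for ETS factors such as GABPA and AAGATGGCG for YY1.
MRPL16 (chr11:59810729-59811028, minus strand): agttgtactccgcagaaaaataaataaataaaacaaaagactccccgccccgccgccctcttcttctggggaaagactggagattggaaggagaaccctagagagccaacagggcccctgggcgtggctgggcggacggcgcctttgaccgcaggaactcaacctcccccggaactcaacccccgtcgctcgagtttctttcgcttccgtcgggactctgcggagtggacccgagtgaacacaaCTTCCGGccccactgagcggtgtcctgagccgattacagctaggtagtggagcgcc
MRPL3 (chr3:131502922-131503221, minus strand): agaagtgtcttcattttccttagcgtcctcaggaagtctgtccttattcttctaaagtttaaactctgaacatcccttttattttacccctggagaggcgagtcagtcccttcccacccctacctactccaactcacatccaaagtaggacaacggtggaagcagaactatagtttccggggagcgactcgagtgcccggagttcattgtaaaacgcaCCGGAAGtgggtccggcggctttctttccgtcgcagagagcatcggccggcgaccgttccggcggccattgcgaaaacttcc
MRPS18A (chr6:43687742-43688041, minus strand): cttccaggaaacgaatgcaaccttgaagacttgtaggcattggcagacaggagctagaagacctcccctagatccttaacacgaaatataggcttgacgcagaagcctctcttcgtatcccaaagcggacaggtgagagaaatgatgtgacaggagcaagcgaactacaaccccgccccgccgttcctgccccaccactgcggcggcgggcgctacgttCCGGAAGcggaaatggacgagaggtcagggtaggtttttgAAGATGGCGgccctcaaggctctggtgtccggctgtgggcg
The ETS letters began 6 bases before the start in MRPL16, 32 before it in MRPL3 and 31 before it in MRPS18A. The YY1 letters of MRPS18A began 9 bases after the start. The ETS letters were found in 28 of the 67 promoters (41.8%), 16 of the large and 12 of the small subunit, compared with 10.7% of all 27305 promoters and 14.2% of 15843 promoters of protein-coding genes. The YY1 letters were found in 12 (17.9%), compared with 1.85% and 2.74%. The palindromic motif of the nuclear respiratory factor NRF1 occurred in 8 (11.9%), compared with 6.28% and 8.58%. CAATAAA, letters of the posterior HOX factors to which HOXD9 belongs, occurred in 1 (1.49%), that of MRPS14, compared with 4.12% and 2.82%. No motif contains another, and 4 promoters held both the ETS and the YY1 letters. The median log2 ratio was -0.13 for genes with the ETS letters and -0.16 for those without, and -0.21 with and -0.14 without the YY1 letters. A match is a description of the sequence and not a binding site.

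In the large subunit the 48 genes had a median log2 ratio of -0.16 (0.14 after centering), 41 lay below 0 and 7 above it, compared with 83.2% of all genes below 0. After centering 8 of the 48 lay below 0, compared with 43.7% of all genes. The MRPL genes were brighter than all genes, with a median signal of 708 against 198. Below 0 after centering lay 1196 of 3023 genes with signals from 300 to 1000 and 299 of 1280 from 1000 to 5000. The middle of the distribution, between its quartiles, ran from -0.26 to -0.08. After MRPL16, the lowest were MRPL19 and MRPL2. MRPL19, a counterpart of bacterial L19, gave 601 with HOXD9 siRNA-2 and 895 with control siRNA, a log2 ratio of -0.57. Its dimmer probe sets gave -0.90 and 0.19 and so stood on both sides of it. MRPL2, the counterpart of L2 near the catalytic site, gave 89.2 with HOXD9 siRNA-2 and 129 with control siRNA. Its probe sets were close, at -0.53 and -0.71. MRPL55, MRPL39 and MRPL52 completed the 6 lowest, at -0.37, -0.35 and -0.34.

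The highest genes of the large subunit differed little between the arrays. MRPL34, the counterpart of bacterial L34, had 639 with HOXD9 siRNA-2 and 572 with control siRNA, a log2 ratio of 0.16. MRPL42 gave 476 with HOXD9 siRNA-2 and 430 with control siRNA, a ratio of 0.14, and -0.04 and 0.34 on its other probe sets. MRPL12, which forms the L7/L12 stalk that recruits translation factors and also binds the mitochondrial RNA polymerase, gave 444 with HOXD9 siRNA-2 and 424 with control siRNA (0.07). MRPL23, MRPL40 and MRPL37 followed at 0.03, 0.02 and 0.02. None of these exceeded the 0.28 by which probe sets of a gene disagree as deposited. After centering they stood between 0.32 and 0.46.

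By place in the large subunit, the genes of the stalks ran from -0.26 in MRPL10, the base of the L7/L12 stalk, to 0.07 in MRPL12, with MRPL11 at -0.15 and MRPL1 of the L1 stalk at -0.12. Around the exit of the tunnel MRPL17, MRPL22, MRPL23, MRPL24, MRPL45 and MRPL47 had a median of -0.09. MRPL45, which holds the mitoribosome at the inner membrane, gave 325 with HOXD9 siRNA-2 and 324 with control siRNA. In the central protuberance the median of MRPL18, MRPL38, MRPL40, MRPL46, MRPL48 and MRPL58 was -0.16. MRPL58, also known as ICT1, can release stalled chains and had a ratio of -0.04. MRPL18, whose bacterial counterpart binds 5S rRNA, was the lowest of this group at -0.31. Near the catalytic site stood MRPL16 and MRPL2, with MRPL27 at -0.21 and MRPL3 at -0.07, so the neighbors of MRPL16 did not share its value. MRPL3 gave 3568 with HOXD9 siRNA-2 and 3751 with control siRNA. MRPL51 (2079 with HOXD9 siRNA-2 and 2233 with control siRNA) and MRPL47 (1864 with HOXD9 siRNA-2 and 1995 with control siRNA) had, with MRPL3, the highest signals of the large subunit, and both had a ratio of -0.10.

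In the small subunit the 27 genes had a median log2 ratio of -0.15 (0.15 after centering), and 22 lay below 0 and 5 above it, compared with 83.2% of all genes below 0. After centering 9 lay below 0 and 18 above it, compared with 43.7% of all genes below 0. The MRPS genes were also brighter than all genes, with a median signal of 572 against 198. No gene was past 2-fold. The lowest were MRPS18A (-0.56, but -0.04 on its other probe set), MRPS18C and MRPS27. MRPS18C, the counterpart of bacterial S18, gave 710 with HOXD9 siRNA-2 and 1031 with control siRNA, a log2 ratio of -0.54. MRPS27, a pentatricopeptide repeat protein, gave 467 with HOXD9 siRNA-2 and 677 with control siRNA, also -0.54. Both had 1 probe set above the filter, and neither value could be checked by another. MRPS11, a protein of the platform, gave 531 with HOXD9 siRNA-2 and 726 with control siRNA, -0.45, and -0.73 on its dimmer probe set. MRPS26 at -0.43 and MRPS12 at -0.42 followed. MRPS12, the decoding center protein whose bacterial counterpart is the site of streptomycin resistance, had 741 with HOXD9 siRNA-2 and 988 with control siRNA, and its 3 probe sets ran from -0.42 to -0.20.

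The ratios of the small subunit fell into 9 genes at or below -0.33 and 18 at or above -0.20, with none between, a gap that is smaller than the SD within genes. MRPS5, MRPS22 and MRPS16 were the other genes below it, at -0.38, -0.34 and -0.33, and the second probe set of MRPS16 gave 0.14. At the other end MRPS14 gave 366 with HOXD9 siRNA-2 and 331 with control siRNA, a ratio of 0.15. Its second probe set gave 47.0 with HOXD9 siRNA-2 and 70.7 with control siRNA, a ratio of -0.59, so the direction of MRPS14 is not settled. MRPS34 stood at 0.08, MRPS10 at 0.04, MRPS31 at 0.03, MRPS6 at 0.02 and MRPS9 at -0.03. MRPS10 gave -0.35 and -0.30 on its other probe sets, of nearly the same signal, and -0.20 as the mean over all of them, and MRPS31 gave -0.18 on its other probe set above the filter, so neither direction is settled. MRPS15, with signals of 2993 with HOXD9 siRNA-2 and 3103 with control siRNA, gave -0.05. MRPS33 and MRPS6 were the other genes with the highest signals of the small subunit, and gave -0.07 and 0.02.

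By place in the small subunit, MRPS7, MRPS9, MRPS10, MRPS14, MRPS31, MRPS33 and MRPS35 of the head ran from -0.15 to 0.15 on their brightest probe sets, with a median of -0.03. DAP3, a protein of the head with another symbol, stood outside this range at -0.42. PTCD3, a mitoribosomal protein with another symbol that was assigned no place here, stood at -0.45. The range of the head is thus that of the 7 listed genes only. For 17 genes of the body, the platform and the decoding center the range was -0.54 to 0.08 and the median -0.20. The ranges overlap. These places were assigned after the values had been seen, so their difference is a description. Without probe sets that can match several transcripts MRPS14 stood at -0.59.

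**Figure D2:**
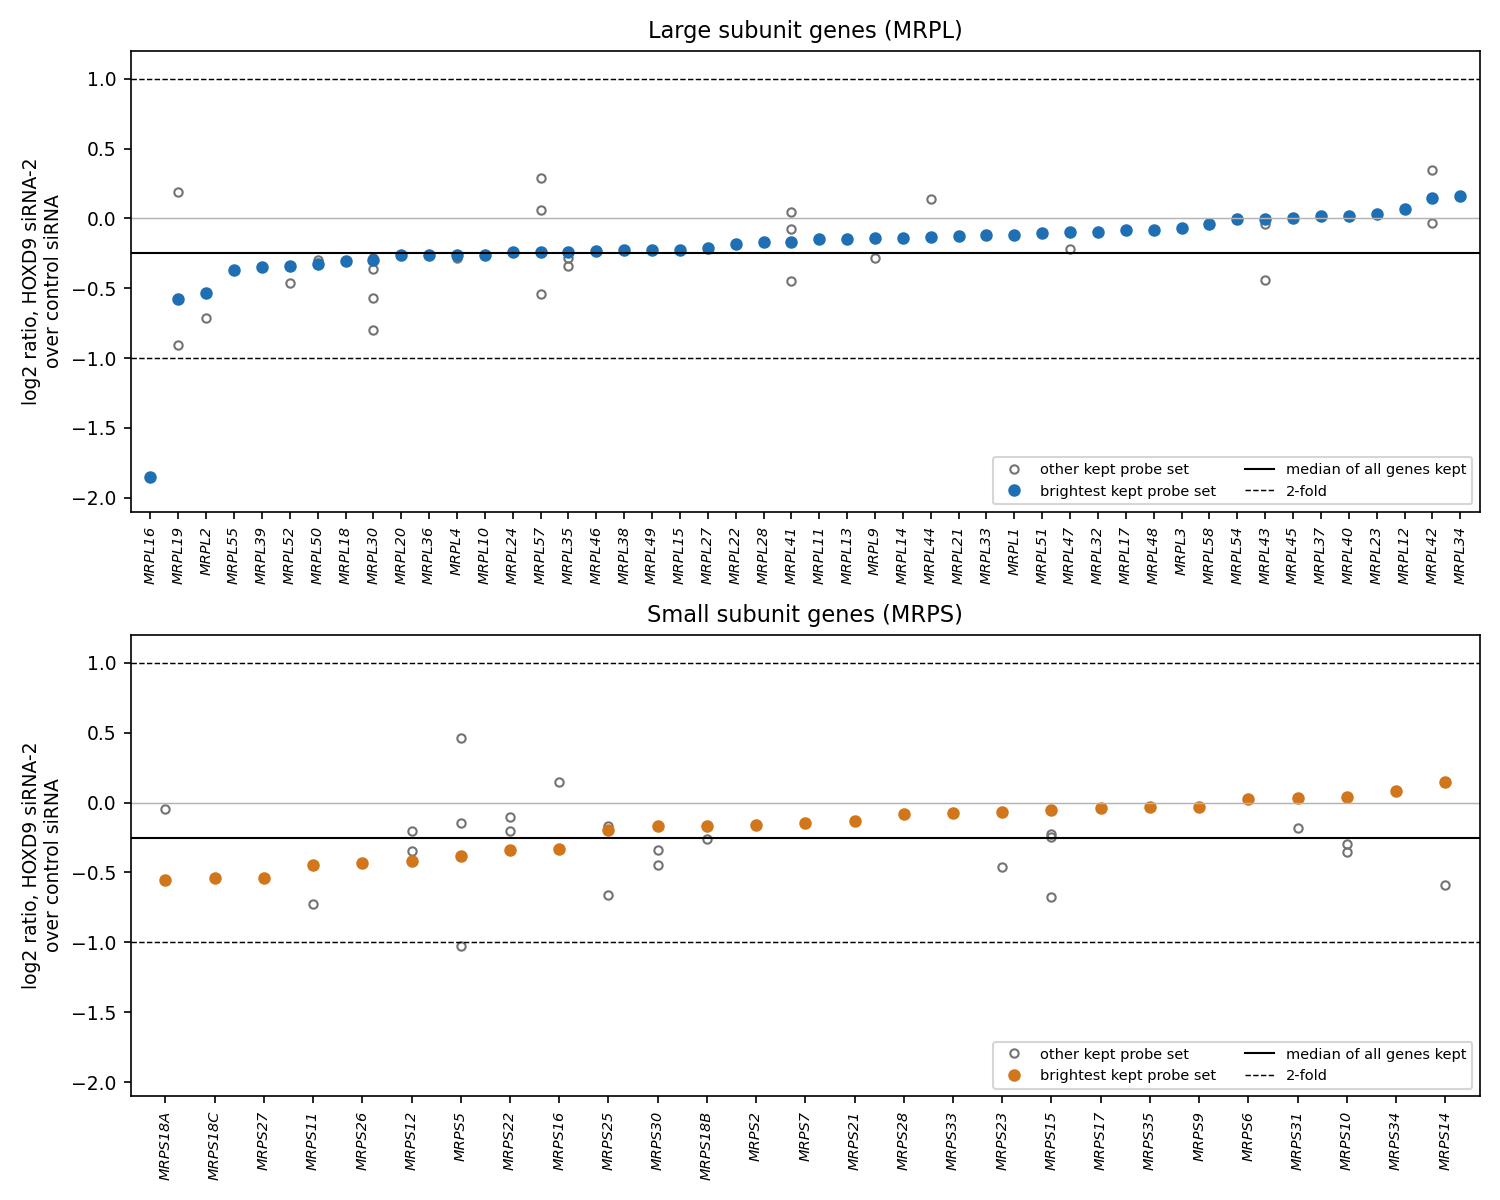
Ratio of HOXD9 siRNA-2 to control siRNA (log2, y axis) for each large subunit gene (top, blue) and small subunit gene (bottom, orange), in order of the ratio (x axis), with filled points for the brightest probe set and open points for other probe sets above the signal filter. Solid lines mark the median of all genes, -0.25, and dashed lines 2-fold. MRPL16 stands alone at -1.85, and open points show how far probe sets of a gene can disagree, as in MRPS5 and MRPL19.

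Both subunits had nearly the same median. The MRPL median minus the MRPS median was -0.01 in log2 ratio, and 35 of 48 MRPL genes and 18 of 27 MRPS genes lay above the median of all genes. The interquartile range was 0.18 for the large subunit, 0.33 for the small subunit and 0.41 for all genes. The SD over genes ran the other way, at 0.29 for the large and 0.21 for the small subunit, and was 0.15 for the large subunit without MRPL16. Among all genes the interquartile range was 0.39 at signals from 100 to 300, 0.30 from 300 to 1000 and 0.21 from 1000 to 5000. The 0.33 of the small subunit was thus not below that of all genes from 300 to 1000, where its median signal lies. The difference of medians took either sign with other ways of choosing a value per gene. It was 0.051 with the mean over the probe sets of each gene and -0.17 without probe sets that can match several transcripts, which left 40 of the 75 genes. Without replicates the difference between the subunits has no test.

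The names of some of these proteins do not match their place. In structures of the human mitoribosome MRPS18A and MRPS30 lie in the large subunit, and MRPS36, now KGD4, belongs to the oxoglutarate dehydrogenase complex. MRPS18A gave 248 with HOXD9 siRNA-2 and 364 with control siRNA on its brighter probe set (-0.56) but 285 with HOXD9 siRNA-2 and 294 with control siRNA on the other (-0.04). MRPS30 stood at -0.17 and KGD4 at -0.01. With MRPS18A and MRPS30 counted in the large subunit, the medians were -0.17 for 50 genes of the large and -0.13 for 25 genes of the small subunit. The 47 genes with a bacterial counterpart had a median of -0.16 and the 28 without one -0.12. Of mitoribosomal proteins with other symbols, DAP3, a GTP-binding protein of the small subunit head, stood at -0.42 (-0.12 after centering). As deposited DAP3 was lower on all of its 3 probe sets. PTCD3 stood at -0.45 (-0.15 after centering) and was lower on all of its 4 as deposited. CHCHD1 was at -0.07 and GADD45GIP1 at -0.08.

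In 28 genes several probe sets passed the filter. As deposited, 18 of these genes (64.3%) were lower on all of them, 0 were higher on all, and 10 had values on both sides of 0. Of 6081 genes of the whole array 62.8% were lower on all and 3.08% higher on all. The share lower on all is thus near that of all genes. After centering 3 of the 28 (MRPL2, MRPL52 and MRPS11) were lower on all, or 10.7%, compared with 21.2% of all genes. Another 7 were higher on all (25%, compared with 25.4% of all genes). The other 18 had values on both sides of 0 (64.3%, compared with 53.5% of all genes). The median span between the lowest and the highest was 0.33. As deposited MRPL4 was the most even of the genes with 3 probe sets, at -0.26 to -0.28, and MRPL30 was lower on all of its 5, from -0.80 to -0.29. Only MRPS5 and MRPL19 spanned more than 1. In MRPS5 the brightest probe set gave 485 with HOXD9 siRNA-2 and 633 with control siRNA (-0.38), and a dim one gave 16.1 with HOXD9 siRNA-2 and 32.7 with control siRNA. The 16.1 lay within the background, so this probe set was at least 1.78-fold lower, although its measured ratio of -1.03 is past 2-fold. With MRPL16 it made 2 of the 125 probe sets past 2-fold downward, against 6.69% of all probe sets above the filter, and 0 were past it upward, against 0.615%. A further dim probe set of MRPS5 had a ratio of 0.47. The disagreement followed the signal, with a pooled SD within genes of 0.59 among probe sets under a signal of 100 (5 genes) and 0.19 among those at 100 or more (19 genes). Of the 15 probe sets under the filter 13 had both signals within the background, and 7 had measured ratios past 2-fold in either direction, which give no fold.

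**Figure D3:**
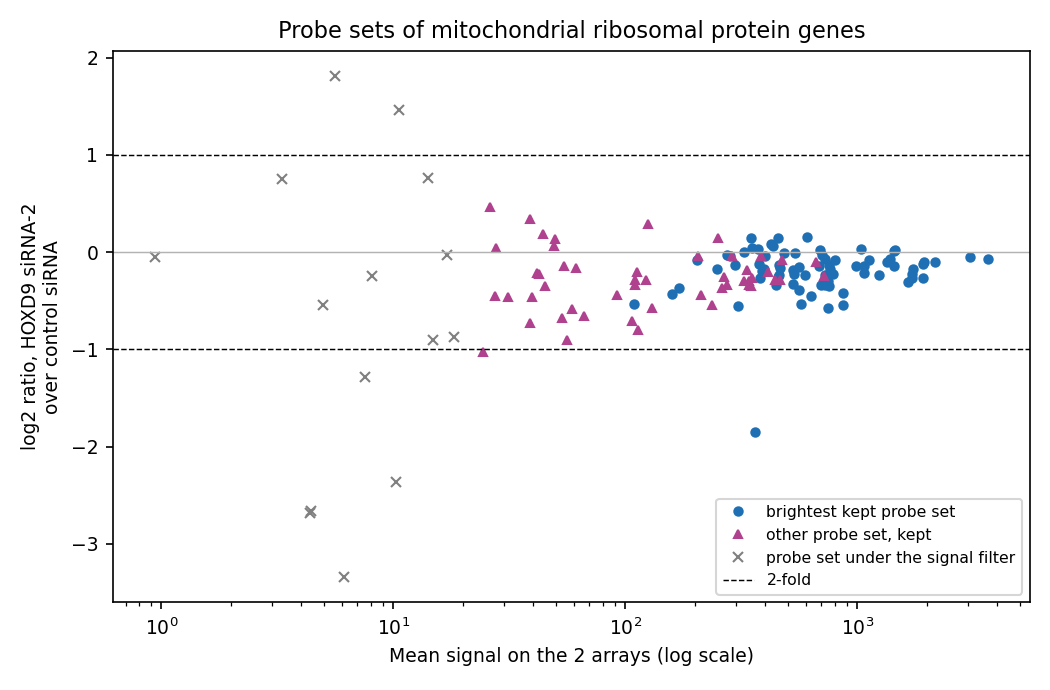
Ratio of HOXD9 siRNA-2 to control siRNA (log2, y axis) for all 140 probe sets against their mean signal (x axis, log scale), with circles for the brightest probe set of each gene, triangles for other probe sets above the signal filter and crosses for the 15 below it. Dashed lines mark 2-fold. Scatter narrows as the signal grows, and MRPL16 is the only circle past 2-fold.

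Because bright probe sets scatter less, the genes were also read beside all genes of like signal. From 300 to 1000, 47 of the 75 had a median of -0.17 and all 3023 genes -0.24. At 1000 or more, 20 had a median of -0.11 and 1280 genes with signals up to 5000 had -0.17. From 100 to 300, 8 had a median of -0.15 and 3416 genes -0.29. In each band the median of the set lay above that of all genes.

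Other nuclear genes of mitochondrial translation had lower medians than the ribosomal proteins in the deposited signals. These lists were also dimmer. Their median signals were 233 for assembly, 359 for translation factors and 272 for tRNA synthetases, against 628. The part of signal in these lower medians was not tested. Of 23 genes for assembly of the mitoribosome 1 was past 2-fold downward (4.35%, against 4.95% of all genes). None was past it upward (0.516% of all genes), and their median was -0.32. NSUN4, an rRNA methyltransferase that joins the assembly of the subunits, gave 76.8 with HOXD9 siRNA-2 and 167 with control siRNA, a ratio of -1.12. Its other probe sets above the filter gave -1.04 and -0.50, and after centering NSUN4 stood at -0.82, short of 2-fold. MPV17L2 and the GTPase gene MTG1 were at -0.71 and -0.66, MTG2 was at -0.56 with a dimmer probe set at -1.04, and RBFA, a factor for the small subunit, was highest at 0.35, followed by YBEY at 0.04 and MALSU1 at -0.0034. YBEY and MALSU1 also had probe sets at -0.64 and -0.98. None of 15 translation factors was past 2-fold, against 4.95% of all genes downward and 0.516% upward, and the median was -0.19. GUF1 was lowest at -0.70, then MTRFR at -0.60 and LRPPRC at -0.42, and the initiation factor MTIF3 was highest at 0.18, before the elongation factor gene TSFM at 0.10 and MTIF2 at -0.12. The 3 TSFM probe sets ran from -0.49 to 0.10.

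Of 17 tRNA synthetases that serve mitochondria 1 was past 2-fold downward (5.88%, against 4.95% of all genes). None was past it upward (0.516% of all genes), and the median was -0.21. LARS2, which charges mitochondrial tRNA with leucine, gave 108 with HOXD9 siRNA-2 and 436 with control siRNA, a ratio of -2.01. Its second probe set gave 93.6 with HOXD9 siRNA-2 and 242 with control siRNA, a ratio of -1.37, and both stayed past 2-fold after centering, at -1.71 and -1.07. LARS2 is thus lower on 2 probe sets, whereas MRPL16 was read by 1. AARS2 and SARS2 followed at -0.54 and -0.53, and NARS2, YARS2 and MARS2 were highest, at 0.30, 0.15 and 0.12. The second AARS2 probe set stood at 0.45.

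For 68 nuclear genes of oxidative phosphorylation the median was -0.11, with 0 past 2-fold, against 4.95% of all genes downward and 0.516% upward. Products of the mitoribosome enter these complexes except complex II, here SDHA, SDHC and SDHD. The 68 genes ran from -0.31 in NDUFV3 of complex I to 0.23 in UQCR10 of complex III. The second probe set of NDUFV3 gave -0.03 and that of UQCR10 gave -0.22. For 47 genes of cytosolic ribosomal proteins the median was -0.08. One of them, RPLP2, was past 2-fold downward (2.13%, against 4.95% of all genes). The probe set was at least 2.98-fold lower (13.6 with HOXD9 siRNA-2, within the background, and 54.8 with control siRNA). The other RPLP2 probe set gave 0.39. Both medians lay above that of the mitochondrial ribosomal proteins, but these lists were also brighter, with median signals of 2324 for oxidative phosphorylation and 8094 for cytosolic ribosomal proteins, against 628. The 20 mitochondrial ribosomal protein genes with signals from 1000 to 5000 had a median of -0.11, like the oxidative phosphorylation genes. The part of signal in these differences was not tested.

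**Figure D4:**
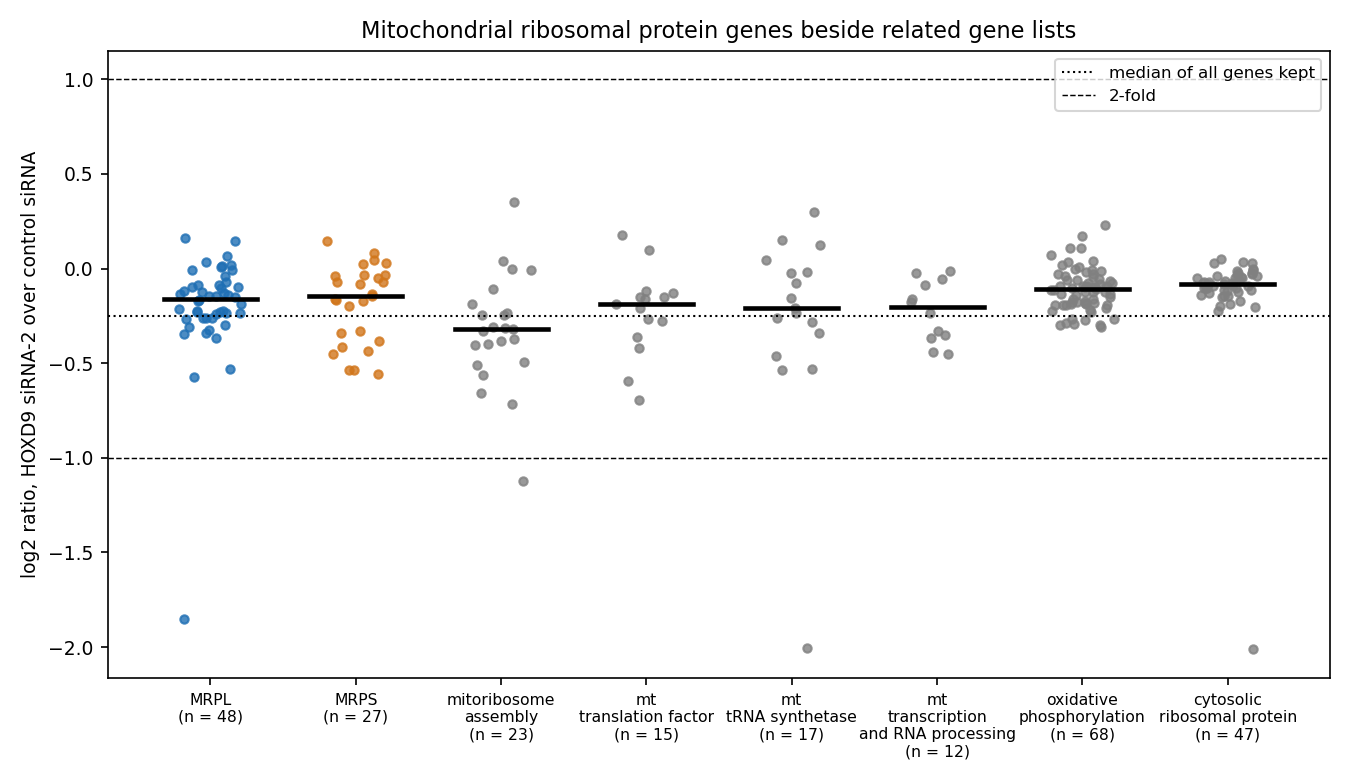
Ratio of HOXD9 siRNA-2 to control siRNA (log2, y axis) for each gene above the signal filter in the MRPL and MRPS genes and 6 related lists (x axis, with the number of genes), with black bars for the medians, a dotted line for the median of all genes and dashed lines for 2-fold. MRPL16, NSUN4, LARS2 and RPLP2 are the only points past 2-fold, all of them lower. The RPLP2 point is a measured ratio to a signal within the background.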

How the data were processed

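Affymetrix Human Genome U133 Plus 2.0 arrays were hybridized with RNA of U87 cells, 1 array per condition. Each deposited value is a signal intensity of a probe set on a linear scale, as made by the authors. GCOS is named in the processing notes of the submitters and GeneSpring in the study's methods. No scaling target or detection call is stated. The median intensity was 18.3 with HOXD9 siRNA-2 and 22.5 with control siRNA.

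With 62 control probe sets removed, 54613 entered the log2 ratios. Of these, 41091 had 1 gene in the platform annotation, 1801 several and 11721 none listed, and symbols were updated through Entrez numbers to RefSeq (GRCh38.p14) for 41037. Those whose mean signal reached 19.8 were kept, and the brightest stood for its gene. Background was the highest of 27 Bacillus subtilis probe sets. A difference past it on 1 array alone is given as at least the ratio to 18.4. Named are HOXD9, the 6 lowest and 6 highest and the 3 brightest genes of each subunit, genes with a probe set past 2-fold or spanning more than 1, those whose name and place differ, and up to 3 lowest and 3 highest of each other list. Others are named for their role. The members and lists were chosen with earlier results of these data known, and the places in the subunits, the motifs and the lists of oxidative phosphorylation and cytosolic ribosomal proteins were set after the values had been seen. Alternatives were median centering, quantile normalization, loess (fraction 0.3), no filter, a stricter filter (percentile 70), a floor (percentile 20), leaving out _s_at and _x_at probe sets, averaging of probe sets, platform symbols and subunits by structure. The procedure was tested on simulated data. The software was Python 3.11.15 with statsmodels 0.14.6 for loess, pandas 2.3.3 and numpy 2.4.6.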

Additional observations from a re-analysis of the deposited data

How the results depend on the processing

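The direction of the set against 0 followed the scaling of the arrays. The median log2 ratio of the 75 genes was 0.15 after median centering, 0.087 after quantile normalization and 0.083 after loess. For MRPL genes it was 0.14, 0.071 and 0.073, and for MRPS genes 0.15, 0.12 and 0.11. The set stayed above the median of all genes under each alternative, by 0.059 to 0.12. The MRPL median minus the MRPS median was 0.051 with probe sets averaged and -0.17 without _s_at and _x_at probe sets, and -0.0012 without MRPL16, an alternative chosen after seeing the data. Without _s_at and _x_at probe sets, the count of genes past 2-fold downward was 0, because the only probe set of MRPL16 is among them. MRPL16 was otherwise between -1.85 and -1.55. Of the named genes, averaging moved 2 by more than 0.41 (64 stayed within it), and leaving out _s_at and _x_at probe sets moved 4 (40 stayed within it), among them MRPS14, MRPS18A and MRPS5, at -0.59, -0.04 and 0.47 without _s_at and _x_at probe sets. No paired analysis was possible because each condition has 1 array. With so few arrays, precision is limited throughout, and more so for dim probe sets.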

Other observations

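Of 12 genes that transcribe mitochondrial DNA or process its RNA 0 were past 2-fold, against 4.95% of all genes downward and 0.516% upward. Their median log2 ratio was -0.20 (0.10 after centering), against -0.15 (0.15) for the mitochondrial ribosomal proteins. Their median signal was lower too, at 347 against 628. The lowest were MTPAP, the mitochondrial poly(A) polymerase, with signals of 330 with HOXD9 siRNA-2 and 452 with control siRNA (-0.45), MTERF1 at -0.44 and the helicase gene SUPV3L1 at -0.36. The highest were HSD17B10, a subunit of mitochondrial RNase P, at -0.01, ELAC2, which cuts the 3′ end of tRNAs, at -0.02 and the transcription factor gene TFB2M at -0.06. TFAM, which packages and transcribes mitochondrial DNA, stood at -0.35 (-0.05 after centering). As deposited TFAM was lower on all of its 4 probe sets, from -0.40 to -0.25. Of all genes with several probe sets, 62.8% were lower on all of them as deposited. POLRMT, the mitochondrial RNA polymerase, gave -0.09 on its brighter and 0.91 on its dimmer probe set.

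Of 10 regulators of mitochondrial biogenesis none was past 2-fold on its brightest probe set, against 4.95% of all genes downward and 0.516% upward. Their median was -0.28 (0.02 after centering). PPARGC1B, a coactivator of the PGC-1 family, was lowest at -0.65, with signals of 63.4 with HOXD9 siRNA-2 and 99.2 with control siRNA. CREB1 stood at -0.59, although its 7 probe sets ran from -1.03 to -0.14, and PPRC1 at -0.49. NRF1 stood at -0.25 and GABPA at -0.31. The highest were PPARGC1A at 0.15 with signals of 22.5 with HOXD9 siRNA-2 and 20.3 with control siRNA, near the background, GABPB1 at 0.11 and YY1 at -0.22. The second GABPB1 probe set gave -0.98.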
